A study of Mus musculus with 6 samples.

Results

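The genes described here are 10 immediate-early and activator protein 1 (AP-1) genes, taken by symbol from the 55450 genes of the count table: Fos, Fosb, Jun, Junb, Jund, Egr1, Ier2, Ier5, Dusp1 and Nfkbia. Their transcripts were measured in a mouse study of microRNA-125a (miR-125a), in which LSK/SLAM stem cells were made to overexpress the microRNA and transplanted into lethally irradiated mice; the labelled strain is C57BL6/SJL. RNA was sequenced 12 weeks later from 2000 sorted lineage-Sca+ bone marrow cells per library, with a low-input kit. The comparison asked how transcripts differed between libraries with endogenous and with overexpressed miR-125a, and both groups had been through sorting, transplantation and recovery. The labels name 3 libraries per group, and the counts analysed here cover replicates 1 and 3 of the endogenous group and replicates 2 and 3 of the overexpressed group (n = 2 each). Nothing in the labels ties a library to a recipient, so p-values reflect spread among these 4 libraries alone, part of which may be technical.

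Immediate-early genes are transcribed within minutes of a signal, without the need for new protein, because the factors that switch them on are already present and are activated by kinases. Fos and Jun family proteins pair through a leucine zipper to form AP-1, which binds DNA at AP-1 sites and carries the signal on to later genes. The response is short, because the transcripts carry AU-rich elements that speed their decay and because products such as the phosphatase Dusp1 and the NF-kappaB inhibitor Nfkbia shut down the pathways that induced them. In bone marrow these genes are known to respond to cytokines, to exit from quiescence and to the handling of cells during isolation.

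The libraries were shallow, with total counts from 654126 to 737431. The chemosensory receptor genes (1479 odorant, vomeronasal and trace-amine receptors), which blood cells are not known to use, held between 2.56 and 3.77 counts per kb of exon in a library, and 95% of them lay below 6.68 to 10.4 counts per kb. Mitochondrially encoded genes took between 4.14% and 6.29% of the counts in 3 libraries and 0.558% in overexpressed replicate 3. Ly6a, which encodes the Sca-1 used for sorting, had 1 and 0 counts in the endogenous and 1 and 1 in the overexpressed libraries. Among other stem and progenitor genes, Cd34 had 32 and 26 against 58 and 38 and Flt3 56 and 37 against 242 and 33. Kit had 4 and 25 counts against 9 and 5, Mecom 28 and 41 against 19 and 31, Hlf 8 and 16 against 5 and 10, and Slamf1 8 and 7 against 3 and 6, so these genes had no common direction. In RNA from a pool of cells, fewer cells that express a gene and less RNA per cell cannot be told apart.

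Because the manipulated factor is a microRNA, its sequence is shown first, beside that of miR-125b, which shares its seed. Capitals mark the seed, bases 2 to 8, and the sequences are RefSeq's for build GRCm38.p6 (miR-125a-5p at chr17:17830817-17830840, plus strand).
miR-125a-5p: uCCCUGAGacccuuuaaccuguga
miR-125b-5p: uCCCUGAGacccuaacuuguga

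A match to the seed (CTCAGGG or, with an A after the site, TCAGGGA) was found in the 3' UTR of 1 of the 10 genes, Ier2, against 19.5% of 21037 coding genes and 26.4% of the 8711 of them that passed the count filter. The site in Ier2, an early-response gene of nuclear location, lay 228 bases after the stop codon at chr8:84661841-84661869 (GRCm38, minus strand, 3' UTR), and the match is shown in capitals. A match is a sequence feature and not evidence of binding.
Ier2 seed match: agatcttgaatCTCAGGGtcgaactctct

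AU-rich pentamers (ATTTA) were present in the 3' UTR of the 9 other genes, compared with 65.2% of coding genes. Fos held 4 in 815 bases (4.91 per kb), Dusp1 4 in 690 bases (5.80 per kb) and Junb 2 in 485 bases (4.12 per kb), against 1.93 per kb over all coding genes. The long 3' UTRs of Fosb and Ier5 were sparser, with 0.434 and 0.933 per kb. Longer AU-rich heptamers (TATTTAT, which contains the pentamer) were present in 6 of the 10 genes and in 27.6% of coding genes. They are shown in capitals for Fos and Nfkbia, since these are 2 of the genes whose counts differed most between libraries. Each of these genes held 2 heptamers, and the first is shown. The Fos window lies at chr12:85477103-85477131 (plus strand) and the Nfkbia window at chr12:55489608-55489636 (minus strand), both in the 3' UTR on GRCm38.
Fos AU-rich heptamer: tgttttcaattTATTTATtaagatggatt
Nfkbia AU-rich heptamer: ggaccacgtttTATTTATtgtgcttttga

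**Figure D1:**
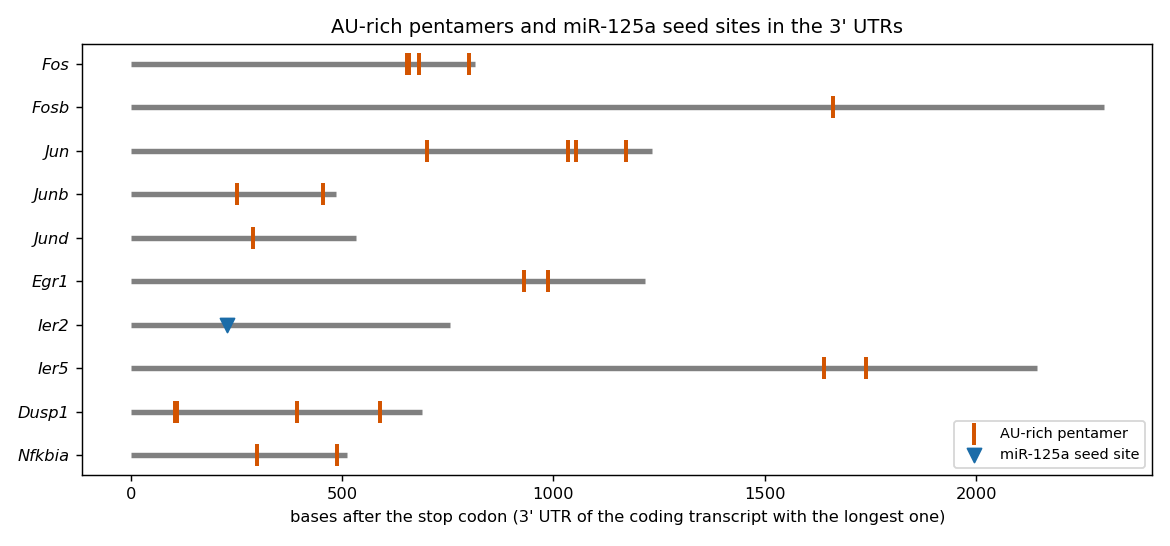
Map of the 3' UTR of each gene, drawn to scale in bases after the stop codon, for the coding transcript with the longest 3' UTR. Orange ticks are AU-rich pentamers and the blue triangle is the single miR-125a seed site, 228 bases into Ier2; Ier2 is also the 1 gene with no pentamer.

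Promoters are shown for Fos, Ier5 and Nfkbia, each of which had most of its counts in 1 endogenous library, and for Dusp1, which held the one full cyclic-AMP response element (CRE) found. RefSeq windows were given for 8 of the 10 genes, those other than Egr1 and Ier2. Each sequence runs over the 250 bases before the annotated start, 5' to 3' on the gene's strand. Capitals mark matches on either strand to the CRE (TGACGTCA), its core (TGACG, which lies within the full CRE), the AP-1 site (TGANTCA), the TATA box (TATAAA), the CArG box of serum response factor and the NF-kappaB site. The windows are chr12:85473640-85473889 (plus strand) for Fos, chr1:155099637-155099886 (minus strand) for Ier5, chr12:55492648-55492897 (minus strand) for Nfkbia and chr17:26508473-26508722 (minus strand) for Dusp1, all on GRCm38.p6.
Fos promoter: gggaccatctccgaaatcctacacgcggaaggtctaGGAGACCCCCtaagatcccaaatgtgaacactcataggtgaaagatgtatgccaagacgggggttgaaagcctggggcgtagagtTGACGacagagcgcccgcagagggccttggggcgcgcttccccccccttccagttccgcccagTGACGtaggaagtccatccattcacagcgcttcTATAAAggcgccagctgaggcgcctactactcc
Ier5 promoter: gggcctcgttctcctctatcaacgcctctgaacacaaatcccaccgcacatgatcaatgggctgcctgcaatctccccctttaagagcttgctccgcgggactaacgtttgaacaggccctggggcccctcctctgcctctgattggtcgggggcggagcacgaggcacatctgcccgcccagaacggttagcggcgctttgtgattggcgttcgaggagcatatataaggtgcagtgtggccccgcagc
Nfkbia promoter: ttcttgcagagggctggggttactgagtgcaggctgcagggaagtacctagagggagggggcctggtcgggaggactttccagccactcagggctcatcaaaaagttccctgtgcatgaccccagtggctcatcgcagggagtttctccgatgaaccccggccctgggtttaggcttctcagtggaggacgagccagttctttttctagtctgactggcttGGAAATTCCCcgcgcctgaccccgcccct
Dusp1 promoter: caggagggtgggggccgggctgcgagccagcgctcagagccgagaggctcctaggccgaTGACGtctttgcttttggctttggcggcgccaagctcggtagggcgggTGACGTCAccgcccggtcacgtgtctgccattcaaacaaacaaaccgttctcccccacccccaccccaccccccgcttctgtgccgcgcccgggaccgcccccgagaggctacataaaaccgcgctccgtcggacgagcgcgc

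The Fos window held CRE cores starting 129 and 66 bases before the start, an NF-kappaB match and a TATA box starting 33 bases before it. Nfkbia held an NF-kappaB match starting 29 bases before the start, and Dusp1 a full CRE starting 143 bases before it. The Ier5 window held none of these motifs, only the GC boxes (GGGCGG, not capitalised), of which it had 2. Of the 8 windows, 4 held a CRE core (17.8% of the 32851 windows in the table), 3 an NF-kappaB match (7.25%), 1 a full CRE (1.55%), 1 a TATA box (12.4%), 6 a GC box (32.7%), and 0 an AP-1 site (6.75%) or a CArG box (1.47%). The Jund window, which held none of these motifs, ended at chr8:70697738. The Jund gene counted here starts at 70698949, so that window does not adjoin it. The Dusp1 gene counted here runs from 26505590 to 26562128 on the minus strand. The Dusp1 window therefore lies inside that gene, before an internal start. The Junb window begins at 84978749 and the counted Junb gene ends at 84978718, so these do not quite adjoin. The motif counts describe letters in a short window, so sites farther upstream were outside it.

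Among the AP-1 subunits, Fos was lower in both overexpressed libraries than in either endogenous one. Fos (ENSMUSG00000021250.13, chromosome 12, 85473890 to 85477273, plus strand, 4 exon blocks), the best known immediate-early transcription factor, had 56 counts in endogenous replicate 1, 6 in endogenous replicate 3, 1 in overexpressed replicate 2 and 0 in overexpressed replicate 3. Counts below follow that order, endogenous pair against overexpressed pair. Both endogenous values thus lay above both overexpressed ones, but endogenous replicate 1 alone held 90.5% of the summed level once the libraries were scaled. The endogenous mean was 46.0 ± 54.7 CPM (counts scaled to a common library size; SD, n = 2) and the overexpressed mean 0.791 ± 1.12 (n = 2). From summed counts, 62 against 1, Fos was 56.6-fold higher in the endogenous libraries, with an exact 95% interval of 9.79 to 2270 that covers counting error only. The kit's reads carry no molecular identifiers in these counts, so this interval and the others from counts are too narrow for molecules. Within the endogenous group the libraries differed 11.5-fold. Fosb (ENSMUSG00000003545.3, chromosome 7, 19302696 to 19310051), its close relative, was barely seen, with 0 and 1 counts against 2 and 1.

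Jun family genes showed no common direction. Jun (ENSMUSG00000052684.4, chromosome 4, 95049034 to 95052222, a single exon), the usual partner of Fos, had 11 and 7 counts against 15 and 8. Its groups overlapped, at 12.6 ± 5.71 CPM against 17.4 ± 8.92 (SD, n = 2 each). Junb (ENSMUSG00000052837.6, chromosome 8, 84974484 to 84978718), a Jun protein that restrains proliferation in myeloid cells, had 36 and 13 counts against 64 and 2. The overexpressed libraries stood at both ends of that range and differed 36.4-fold, more than the endogenous ones (3.43-fold), so the group means of 35.2 ± 27.3 and 52.0 ± 69.7 CPM (SD, n = 2 each) say little. Jund (ENSMUSG00000071076.6, chromosome 8, 70698949 to 70700616, a single exon), the Jun protein usually present in resting cells, had 0 and 2 counts against 0 and 0. Exons of Jun, Junb, Jund and Dusp1 overlap those of Junos, Prdx2, Gm11175 and Ergic1 on the opposite strand, and how reads there were assigned is not given in the sources used here. Prdx2 had 5 and 11 counts against 6 and 2, Ergic1 9 and 8 against 15 and 11, Junos 7 and 2 against 3 and 3, and Gm11175 0 in each library.

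Egr1 and the early-response genes differed among themselves. Egr1 (ENSMUSG00000038418.7, chromosome 18, 34859823 to 34864984), a zinc finger factor linked to stem cell quiescence, had 14 and 22 counts against 22 and 15. Its means were 24.0 ± 4.04 and 27.8 ± 9.87 CPM (SD, n = 2 each) and the groups overlapped. Ier5 (ENSMUSG00000056708.5, chromosome 1, 155096361 to 155099636, a single exon), an early-response gene that works with heat shock factor 1, had 6 and 28 counts with endogenous miR-125a and 0 in both overexpressed libraries. The endogenous libraries stood at 9.07 and 34.2 CPM. From summed counts, 34 against 0, the exact 95% interval put Ier5 at least 7.96-fold lower with overexpression, for counting error only. Endogenous replicate 3 held 79.0% of its summed level. Ier2 (ENSMUSG00000053560.4, chromosome 8, 84661331 to 84662852, a single exon), the 1 gene with a miR-125a seed match, had 0 and 3 counts against 3 and 0, so no difference was detectable at this depth.

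The feedback inhibitors were also unalike. Dusp1 (ENSMUSG00000024190.7, chromosome 17, 26505590 to 26562128), which removes phosphate from the MAP kinases, had 7 and 9 counts against 5 and 5. The scaled groups did not overlap, at 10.8 ± 0.292 CPM against 7.43 ± 0.679 (SD, n = 2 each), but the ratio of summed counts, 1.46 endogenous over overexpressed, had a counting interval of 0.623 to 3.60. Nfkbia (ENSMUSG00000021025.8, chromosome 12, 55489410 to 55492647), which holds NF-kappaB in the cytoplasm and is itself induced by it, had the most counts of the 10 genes, 198 and 20 against 14 and 18. Endogenous replicate 1 stood apart at 299 CPM, while the other 3 libraries lay between 22.2 and 25.03 CPM. The groups overlapped, at 162 ± 194 CPM against 23.6 ± 2.03 (SD, n = 2 each), and the endogenous libraries differed 12.3-fold.

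**Figure D2:**
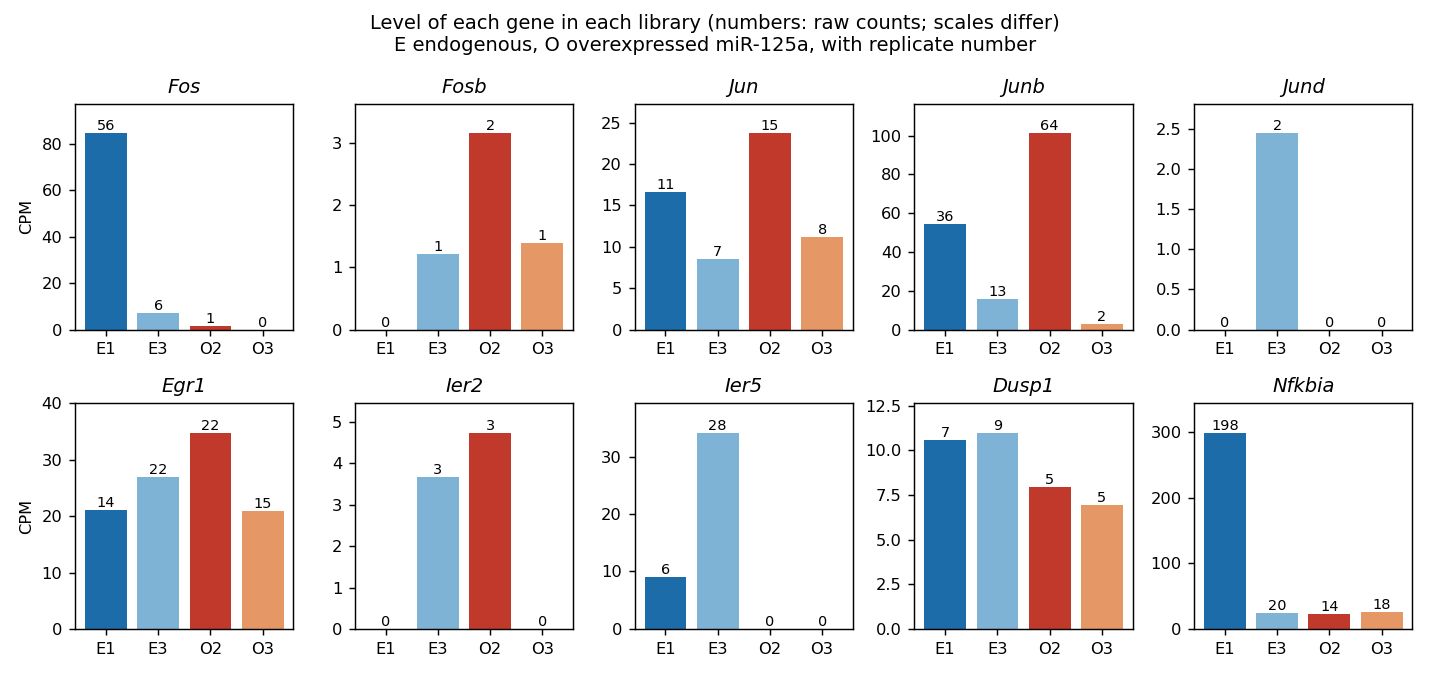
Level of each gene in each library, as bars of CPM from effective library sizes, with raw counts above the bars and a separate scale for each gene. Fos and Nfkbia stand out in endogenous replicate 1 (56 and 198 counts), Ier5 in endogenous replicate 3 (28) and Junb in overexpressed replicate 2 (64), while Jun, Egr1 and Dusp1 are similar in the 4 libraries.

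Tested gene by gene, none of these genes was called with the planned low-count filter, and Fos and Ier5 were called lower with overexpression when that filter was left off. The filter asks for roughly 10 counts in at least 2 libraries and kept Jun, Junb, Egr1 and Nfkbia. By edgeR's quasi-likelihood F test with Benjamini-Hochberg adjustment 0 of these 4 passed, as did 0 of the 10808 genes tested (0%); none of the 4 and 566 of all tested genes had an unadjusted p under 0.05. Their log2 folds, overexpressed over endogenous, were 0.47 ± 0.59 (SE) for Jun, 0.57 ± 1.33 for Junb, 0.20 ± 0.45 for Egr1 (-0.12 when scaled by library totals, where the median of all tested genes was -0.29) and -2.77 ± 1.19 for Nfkbia, with adjusted p between 0.845 and 0.979 (edgeR). The median over the 4 was 0.34, beside -0.01 over all tested genes, but it became -3.11 over the 6 members tested without overexpressed replicate 2. Fos (-8.1) and Ier5 (-7) were among those 6, having passed the filter only through their endogenous counts. These medians are therefore not over the same genes. In that setting Junb was at -3.54, Nfkbia at -2.68, Egr1 at -0.16 and Jun at -0.12.

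With every gene that had a count in the fit, 2 of the 10 genes passed the same test as lower, against 1.07% of 46089 genes (495) called lower. They were Fos (log2 fold -5.65 ± 0.93 SE, adjusted p = 2.02e-06 by edgeR) and Ier5 (-6.94 ± 1.25, adjusted p = 1.47e-05 by edgeR), whose fitted folds depend on a prior count because the overexpressed libraries hold 1 count or none. None passed as higher, the call made for 0.709% of all genes. The 10 genes and the related lists were chosen with earlier results of these data known. Shares of members called, here and below, are therefore descriptions and not tests of the set. Error in this fit was largely pooled over genes: the SE of Junb was 0.69, against 1.33 with the filter, from the same counts. Its overexpressed libraries differed 36.4-fold. The p-values without the filter therefore hardly measure a gene's own spread between libraries. The Fos call rested on endogenous replicate 1: without it the log2 fold was -2.95 ± 1.53 and the adjusted p 0.968. The Ier5 call rested on endogenous replicate 3, with -5.66 ± 1.93 and an adjusted p of 0.209 without it. Nfkbia had a log2 fold of -2.79 ± 0.87 with an adjusted p of 0.071 by edgeR, and 0.05 ± 0.75 without endogenous replicate 1. It passed as lower when endogenous replicate 3 was left out (-3.69 ± 0.97, adjusted p = 0.0194 by edgeR). DESeq2 gave neither Fos nor Ier5 an adjusted p in this setting, and limma-voom gave 0.886 and 0.138. Junb turned from 0.56 ± 0.69 to -3.56 ± 0.99 (adjusted p = 0.0438 by edgeR) once overexpressed replicate 2 was left out. With 2 libraries against 2, an exact permutation test of a single gene cannot go below a two-sided p of 0.333.

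**Figure D3:**
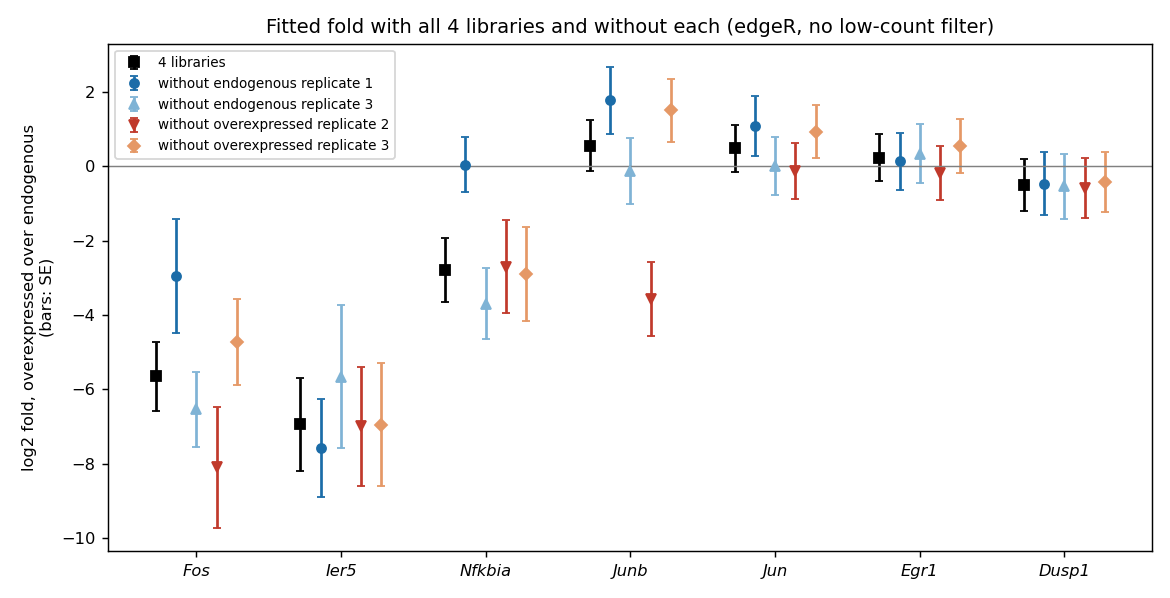
Fitted log2 folds, overexpressed over endogenous, with SE bars, for the 7 genes with 20 or more counts, from all 4 libraries (black) and with each library left out (colours). Fos moves from -5.65 to -2.95 without endogenous replicate 1, Nfkbia from -2.79 to 0.05 without the same library and Junb from 0.56 to -3.56 without overexpressed replicate 2; Dusp1 stays between -0.59 and -0.43.

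The authors' deposited table of edgeR results holds 17039 genes, 7 of the 10 among them, and its folds have the opposite sign, endogenous over overexpressed, as read from the counts. In the authors' deposited table Fos had a log2 fold of 5.64 with an FDR of 4.11e-05 and ranked 7 by p-value. Ier5 had a log2 fold of 6.97 with an FDR of 8.91e-05 in the authors' deposited table and ranked 8. These 2 were the members it called at an FDR under 0.05, both lower with overexpression, against 1.46% of its genes called in that direction and 0.91% in the other. Nfkbia had 2.79 with an FDR of 0.163 in the authors' deposited table, while Jun, Junb, Egr1 and Dusp1 had an FDR of 1.0. When the quasi-likelihood test was run on the same 17039 genes it called 0 of them, with adjusted p = 0.873 for both Fos and Ier5 by edgeR, and 891 genes with an unadjusted p under 0.05. The likelihood ratio test on those genes, the kind of statistic the authors' deposited table holds, called 65, against 404 in that table. Fos (adjusted p = 0.0435 by edgeR) and Ier5 (adjusted p = 0.00407 by edgeR) were among the 65. Both values were larger than in the authors' deposited table, and the reason was not tested.

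Separation of the groups by itself was common in these data. Among the 4 genes past the filter, 0 had groups that did not overlap in either direction, against 17.9% of the 10808 genes with all overexpressed values lower and 15.3% with all higher. Among all 10 genes, Fos, Ier5 and Dusp1 were lower without overlap, and Fosb was counted as higher, against 13.7% and 14.7% of the 46089 genes with a count. The Fosb groups tie at 1 raw count and part only through scaling, at 1.22 against 1.39 CPM.

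Dominance by 1 library was less common. Of the 7 genes with at least 20 counts, Fos, Nfkbia and Ier5 had over 75% of their summed level in 1 library, against 4.43% of 17606 such genes (780). The share was 58.1% for Junb and between 30.2% and 39.5% for Dusp1, Egr1 and Jun, close to the median of 36.2% over all such genes. The minimum of 20 counts and the 75% limit were set after the values were seen, and the genes were chosen with earlier results known. Endogenous replicate 1, which carried Fos and Nfkbia, also had the highest summed level of the 8 B-lineage markers, 682 CPM. The sum was 252 in endogenous replicate 3 and 282 to 426 in the overexpressed libraries. Of the 8 markers 1 was at 0 in 1 overexpressed library and none elsewhere. Cd79a was highest in endogenous replicate 1, with 117 and 6 counts against 75 and 6. Pax5 was not, with 51 and 53 against 66 and 53. Endogenous replicate 3, which carried Ier5, had the highest level of the 7 erythroid markers, 1652 CPM, against 122 in endogenous replicate 1 and 18.1 to 491 in the overexpressed libraries. Of those 7 markers 1 was at 0 in endogenous replicate 3 itself, 0 in endogenous replicate 1, and 1 and 3 in overexpressed replicates 2 and 3. Overexpressed replicate 2, which carried most of Junb, had the highest summed level of the 8 granulocyte markers, 18300 CPM against 7317 to 10980 elsewhere. None of them was at 0 in any library. These markers did not all follow the sum. Mpo had 8 and 20 counts against 42 and 8. Lcn2 had a log2 fold of -3.04 without the filter and without overexpressed replicate 3. Overexpressed replicate 2 was therefore not its highest library. Overexpressed replicate 2 also had the highest summed level of the 7 T and NK markers, 356 CPM against 46.9 to 81.9. Of these markers 2 were at 0 in that library and 2 in endogenous replicate 1. Nkg7 alone made up most of the 356 CPM, with 208 counts there. It had 19 and 25 counts in the endogenous libraries and 15 in overexpressed replicate 3. In overexpressed replicate 2 the 11 listed stem and progenitor genes summed to 586 CPM against 199 to 227, with 1 at 0 in each endogenous library. Flt3 made up most of that sum, with 242 counts there. It had 56 and 37 in the endogenous libraries and 33 in overexpressed replicate 3. Kit, Mecom, Hlf and Slamf1 were not highest in overexpressed replicate 2. The part of any of these in the results was not tested.

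**Figure D4:**
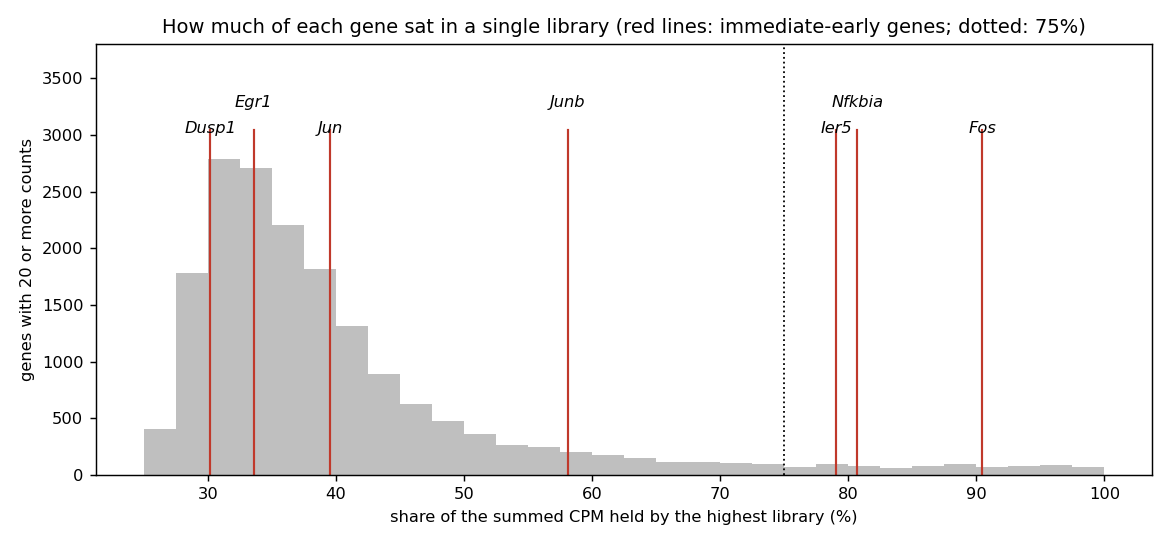
Histogram of the share of a gene's summed CPM held by its highest library, over 17606 genes with 20 or more counts, with red lines for the 7 genes described here that reach that minimum and a dotted line at 75%. Dusp1, Egr1 and Jun sit under the bulk of the genes near the median of 36.2%, and Ier5, Nfkbia and Fos lie in the thin tail at 79.0%, 80.7% and 90.5%.

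Per kb of exon, which allows genes to be ranked, the mean density over the 4 libraries was highest for Nfkbia (38.8 counts per kb), followed by Junb (12.5), Fos (6.70), Egr1 (4.07), Jun (3.21), Ier5 (2.60), Dusp1 (1.96), Ier2 (0.986), Jund (0.300) and Fosb (0.160). Only Nfkbia and Junb exceeded the 8.30 counts per kb below which 95% of receptor genes lay. Nfkbia exceeded that library's own limit in each of the 4 libraries. Junb did so in endogenous replicate 1 (15.7) and overexpressed replicate 2 (27.8), and Fos in endogenous replicate 1 alone (23.8). Ier5 stayed below it even in its highest library, at 8.55 counts per kb. Each pair of neighbours in this order overlapped in its library values. Of the 10 genes 4 (Jun, Jund, Ier2 and Ier5) have a single exon block, against 6.71% of coding genes. Summed over the 10 genes, endogenous replicates 1 and 3 had 496 and 136 CPM and overexpressed replicates 2 and 3 had 199 and 68.2. The sums without Nfkbia were 196.5 and 111 against 177 and 43.1 CPM, so the groups overlapped. The lowest sum was that of overexpressed replicate 3, where mitochondrial genes took 0.558% of counts; the part of that in the sum was not tested.

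**Figure D5:**
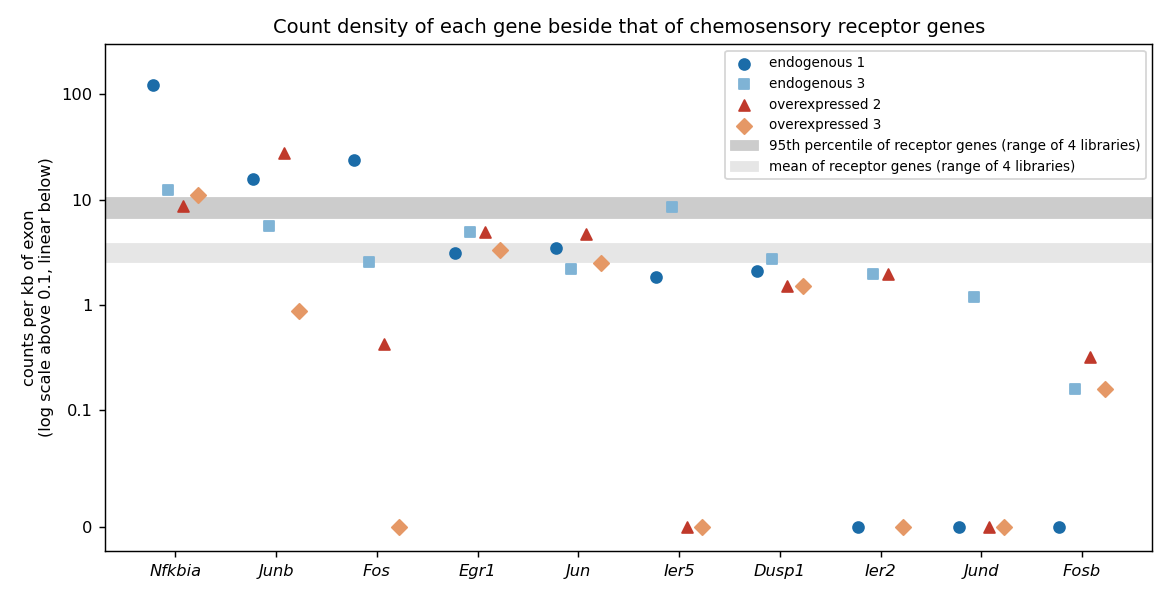
Count density of each gene in each library, in counts per kb of exon on a scale that is logarithmic above 0.1 and linear below, with grey bands for the range over libraries of the mean (2.56 to 3.77) and the 95th percentile (6.68 to 10.4) of 1479 chemosensory receptor genes. Nfkbia lies above its library's percentile throughout, Junb in 2 libraries and Fos in 1, and the other genes lie at or below it.

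Genes of the surrounding pathways were described from fixed lists, and 0 members of any list passed the edgeR test with the low-count filter. Of the 14 other AP-1 subunits and partners 6 were tested, 3 with higher and 3 with lower values (median log2 fold 0.08). Mafk, a small Maf protein, had 5 and 13 counts against 14 and 8, and Atf7, an ATF partner of Jun, 34 and 21 against 22 and 20. Without the filter Fosl2, another Fos family gene, passed as higher, with 6 and 5 against 47 and 2 counts and an edgeR adjusted p of 0.032 (log2 fold 2.34 ± 0.67), and it was also called in the authors' deposited table. Its higher value rested on overexpressed replicate 2, the library in which Junb was also highest. Without that library the log2 fold was -1.34 ± 1.07, and with any other library left out it ran from 2.01 to 3.28. The call was also lost without either endogenous library.

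Of 33 other immediate-early genes 11 were tested, 3 with higher and 8 with lower values (median -0.26), and 2 had an unadjusted p under 0.05, as did 566 of all 10808 genes. These were the anti-apoptotic gene Mcl1 (11 and 166 counts against 12 and 6) and the kinase Sgk1 (12 and 250 against 8 and 15), each with an adjusted p of 0.845 by edgeR. Without the filter 7 of the 32 with a count passed, 5 lower and 2 higher, beside 1.07% and 0.709% of all 46089 genes. The lower ones were Mcl1, Sgk1, the helix-loop-helix inhibitors Id2 (3 and 76 against 1 and 2) and Id3 (0 and 93 against 1 and 0), and the RNA-binding decay factor Zfp36l1 (5 and 15 against 1 and 0). In all 5 endogenous replicate 3 had the most counts, as it had for Ier5. Without that library none of the 5 passed: the log2 folds were -0.34 for Mcl1, -0.14 for Sgk1, -1.01 for Id2, 2.31 for Id3 and -3.09 for Zfp36l1, with adjusted p between 0.964 and 0.983 by edgeR. The higher ones were Ppp1r15a, a phosphatase subunit of the stress response (3 and 4 against 29 and 7), and Gadd45b, a stress sensor (0 and 0 against 10 and 0). Without overexpressed replicate 2 Ppp1r15a had a log2 fold of 1.05 (adjusted p = 0.978 by edgeR) and Gadd45b had no counts left. The authors' deposited table called 1 of the 18 it holds, Ppp1r15a.

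The inducing and restraining arms of the pathways gave few calls. Among 12 MAP kinase phosphatases and feedback regulators 5 passed the filter, 3 with higher and 2 with lower values (median 0.35), and 0 passed with or without the filter. Dusp6, the ERK phosphatase, had 221 and 34 counts against 31 and 3, and Dusp10 16 and 22 against 14 and 73. Like Fos and Nfkbia, Dusp6 was highest in endogenous replicate 1. Of 18 NF-kappaB factors, inhibitors and targets 9 could be tested, 3 with higher and 6 with lower values (median -0.02), and 0 passed with or without the filter. Ikbkb, the kinase that marks Nfkbia for destruction, had 20 and 26 counts against 6 and 9, without overlap (log2 fold -1.47 ± 0.41 with an edgeR adjusted p of 0.845), and Birc3 9 and 32 against 4 and 11.

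Of 20 kinases and factors that induce the members 13 could be tested, 6 with higher and 7 with lower values (median -0.02). Elk3, a partner of serum response factor, had 4 and 7 counts against 20 and 12, and the ERK-activating kinase Map2k2 had 15 and 24 against 31 and 53. Neither overlapped, and both had an adjusted p of 0.845 by edgeR. Its paralog Map2k1 (6 and 5 against 8 and 130) passed as higher without the filter (adjusted p = 0.00106 by edgeR) and in the authors' deposited table, but without overexpressed replicate 3 its log2 fold was 0.76 (adjusted p = 0.915 by edgeR).

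Heat shock and handling genes numbered 12, of which 7 could be tested, 3 with higher and 4 with lower values (median -0.20). The chaperone Hspd1 had 253 and 17 counts against 7 and 16 and Hsp90aa1 71 and 580 against 63 and 28. Without the filter Hspd1 passed as lower and Hspa8 (5 and 13 against 165 and 0) as higher, and both were called in the authors' deposited table. Without endogenous replicate 1 Hspd1 had a log2 fold of -0.21 (adjusted p = 0.971 by edgeR). Without overexpressed replicate 2 Hspa8 turned to -6.14 (adjusted p = 0.0499 by edgeR).

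The genes whose values over the 4 libraries lay nearest to each tested member, by Euclidean distance between centred log2 CPM profiles, were Cyth4 for Jun (distance 0.0484), Carns1 for Egr1 (0.0116), Ndufa1 for Junb (0.509) and Alas1 for Nfkbia (0.282). Alas1, the first enzyme of haem synthesis, had 161 and 16 counts against 11 and 11, and Ndufa1, a respiratory chain subunit, 16 and 6 against 32 and 1. Carns1 had 12 and 19 against 19 and 13 and Cyth4 10 and 6 against 13 and 7. With 4 libraries and 10808 genes near matches are easily found, so these are descriptions of the profiles.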

How the data were processed

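RNA-seq libraries from sorted mouse marrow cells were analysed as 2 endogenous against 2 overexpressed, with groups from the labelled genotype. The counts are deposited as whole numbers. Per the submitters' processing notes FastQC 0.11.8, STAR and edgeR 3.24.3 were used with mm10; the counting tool, gene models and strand setting were not stated there. The authors' deposited comparison table gives log2 folds and mean log2 CPM, a likelihood ratio and a signed score, and p-values with FDR, per the file headers. The sign of its folds matched endogenous over overexpressed counts in 97.8% of genes.

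All 55450 identifiers matched GENCODE vM21 (GRCm38), which gave symbols, exons and 3' UTRs, and promoters and microRNAs came from RefSeq. Counts were fitted in edgeR 4.0.16 (R 4.3.3): filterByExpr, TMM, quasi-likelihood F test, threshold 0.05. SE was taken as the size of the log2 fold divided by the root of F. CPM use effective library sizes. Alternatives were no filter, other scalings, the likelihood ratio test, DESeq2 1.42.0, limma 3.58.1 voom and leaving out each library. Intervals are exact, at 95%, and the floor is 3 counts.

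The members and lists were chosen with earlier results of these data known. All 10 members were named, and of each related list the 2 tested genes with the smallest p. List genes called without the filter or by the authors were added after their values were seen. The 4 list genes with older symbols in the plan (Ccn1, Ccn2, Mrtfa and Mrtfb in GENCODE) were matched through RefSeq synonyms.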

Additional observations from a re-analysis of the deposited data

How the results depend on the processing

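No paired analysis was possible because the groups share only replicate number 3. With the filter on, the count of called genes was 0 in the main analysis and under DESeq2 size factors, library totals and limma-voom. It was 151 with DESeq2 and 84 with the likelihood ratio test. On the authors' gene set, used in place of the filter, it was 0, and 65 with the likelihood ratio test. Without the filter it was 822. The count of called members, 0, became 2 without the filter and 2 with the likelihood ratio test on the authors' gene set. The cause was not tested. The median log2 fold of tested members, 0.34, was -0.30 by limma-voom, -0.51 on the authors' gene set (-0.52 with the likelihood ratio test), and ran from -3.11 to 0.16 without 1 library. The members tested differed with the filter. Scaling by library totals moved the median of all genes to -0.29 and the log2 fold of Egr1 to -0.12. Junb was -0.77 by limma-voom. Without 1 library, Jun ran from -0.12 to 1.11, Junb from -3.54 to 1.81, Egr1 from -0.16 to 0.56 and Nfkbia from -3.67 to 0.066.

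Without the filter, the likelihood ratio test called 38 genes, DESeq2 230 and limma-voom 4, and leaving out 1 library gave 373 to 602 (511 and 425 without endogenous replicates 1 and 3). Of the members these called 1 (Ier5), 0, 0 and 1 to 3. The adjusted p of Fos was 0.0676 by the likelihood ratio test. The median member, -0.15, ran from -2.92 to 0.06 without 1 library. Jun then ran from -0.13 to 1.09, Junb from -3.56 to 1.78 (-0.66 by limma-voom with 4 libraries), Egr1 from -0.17 to 0.54, Ier2 from -3.66 to 3.69 (-0.58 without endogenous replicate 1) and Nfkbia from -3.69 to 0.048. Members whose groups did not overlap numbered 0 lower and 0 higher with the filter, 1 lower by library totals, and 3 lower and 1 higher without the filter. The added settings on all genes and on the authors' gene set were chosen after seeing the data. At this depth 3 unseen counts are 3.66 to 4.75 CPM, so Fosb, Jund and Ier2 could not be compared.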
